A study of Mus musculus with 3 samples.

Results

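The 6 genes described here are Ddit4, Ddit4l, Sesn1, Sesn2, Trp53inp1 and Tigar, chosen by symbol as p53 targets that restrain mTOR signalling or redirect metabolism. They are 6 of the 31053 genes counted in single-cell RNA libraries of mouse forelimb buds at embryonic day 9.5. The mutant embryos were Esco2fl/fl;Prrx1-CreTg/0 and the control embryos Esco2fl/fl, so both carried the floxed Esco2 allele and the mutants alone carried the Cre transgene, which Prrx1 sequences drive in limb mesenchyme. Esco2 is an acetyltransferase that establishes cohesion between sister chromatids. Each library pooled 3 samples of 2 limb buds, 6 buds in all, frozen as cells before pooling, and the design named 3 replicates of each genotype. The analysis used 2 mutant libraries, of 178159788 and 225032823 UMIs, and 1 control library of 202581488 UMIs. The labels do not say whether pools came from separate litters, and a p-value here covers at most the spread within and between these pools.

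p53 is a transcription factor that is stabilised by DNA damage and other stress. Some of its targets arrest the cell cycle, with Cdkn1a, the gene of the CDK inhibitor p21, as the best known, and others slow growth. mTORC1 is the kinase complex that couples nutrients and growth factors to protein synthesis and holds autophagy back. Ddit4 (REDD1) and its paralog Ddit4l (REDD2) act through the TSC complex to lower mTORC1 activity. The sestrins Sesn1 and Sesn2 lower it through the GATOR complexes and AMPK, and Sesn2 is a leucine sensor. Trp53inp1 is a nuclear partner of p53 that also takes part in autophagy. Tigar degrades fructose-2,6-bisphosphate, which slows glycolysis and leaves glucose for the pentose phosphate pathway. Ddit4 is also known as a gene induced by hypoxia and glucocorticoids.

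Cells were placed in classes by marker genes, after each cell was thinned at random to 10000 unique molecular identifiers (UMIs, one per captured transcript). Cells with fewer UMIs were left out. These were 782 of 3590 and 829 of 4684 cells in mutants 1 and 2 and 1683 of 4048 in the control, a larger part. The mesenchyme class rested on Prrx1, Prrx2, Tbx5, Twist1, Lhx2, Lhx9, Msx1 and Fgf10, and held 1016 and 1867 cells in mutants 1 and 2 and 811 in the control. Ectoderm held 363 and 239 cells in the mutants and 264 in the control, endothelium 384 and 426 against 481, and primitive erythroid cells 597 and 445 against 397. All 8 mesenchyme markers were at or above 1 CPM (UMIs per 1000000 UMIs of the class) in mesenchyme of every library. The summed level of the 9 ectoderm markers there was 6.85 and 4.37 CPM in the mutants and 4.91 CPM in the control, that of the 5 myogenic markers 4.66 and 3.75 CPM against 1.77 CPM, and that of the 6 flank markers 41.7 and 18.5 CPM against 52.4 CPM. Their part in the results was not tested. Esco2 itself stood at 23.3 and 21.4 CPM in mutant mesenchyme and 31.9 CPM in control mesenchyme, which does not check the deletion, since reads from the 3′ end can lie outside the deleted part. The libraries shared 65 to 117 cell barcodes by pair, and leaving these cells out kept every call given below of the 6 genes for the mutants against the control. Other genes named below were not rechecked in this way.

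The labels give 2 male samples and 1 female sample per library, and female-like cells were rare in mutant mesenchyme. Cells with a UMI of Xist, expressed from the inactive X of females, and no UMI of Ddx3y, Eif2s3y, Kdm5d or Uty made up 1.38% (95% exact interval 0.755 to 2.30) and 0.536% (0.257 to 0.983) of mesenchyme in mutants 1 and 2, against 11.7% (9.58 to 14.1) in the control. The share depended on the class, and in erythroid cells it was 6.53% and 16.6% in the mutants and 27.7% in the control. The main results were therefore repeated with cells that had a Y-linked UMI and no Xist UMI, 963 and 1726 in mutant mesenchyme and 549 in control mesenchyme.

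RefSeq promoter windows on GRCm38.p6 were matched for 5 of the 6 genes. The 250 bases before the RefSeq start are printed for 3 genes that were higher in mutant mesenchyme and for the second of the Sesn1 starts, to show where the consensus half-site of the p53 response element occurs. That half-site has 10 letters, reads the same on both strands, and is printed in capitals.
Ddit4l, chr3:137623422-137623671, plus strand: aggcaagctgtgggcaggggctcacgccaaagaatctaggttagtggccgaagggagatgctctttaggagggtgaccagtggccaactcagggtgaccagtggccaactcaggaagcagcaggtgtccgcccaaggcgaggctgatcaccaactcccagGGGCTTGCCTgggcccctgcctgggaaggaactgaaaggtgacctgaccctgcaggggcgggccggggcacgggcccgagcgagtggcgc
Ddit4, chr10:59951771-59952020, minus strand: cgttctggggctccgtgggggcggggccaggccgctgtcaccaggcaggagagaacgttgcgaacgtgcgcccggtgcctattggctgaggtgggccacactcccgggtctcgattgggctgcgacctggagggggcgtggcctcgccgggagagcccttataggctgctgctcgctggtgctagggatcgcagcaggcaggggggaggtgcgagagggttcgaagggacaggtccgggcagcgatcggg
Sesn2, chr4:132510457-132510706, minus strand: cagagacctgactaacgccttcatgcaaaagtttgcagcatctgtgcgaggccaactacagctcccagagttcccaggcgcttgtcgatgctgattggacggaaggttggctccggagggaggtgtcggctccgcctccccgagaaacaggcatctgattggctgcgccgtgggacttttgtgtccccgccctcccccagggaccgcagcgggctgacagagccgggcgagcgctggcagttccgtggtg
Sesn1, second start, chr10:41887189-41887438, plus strand: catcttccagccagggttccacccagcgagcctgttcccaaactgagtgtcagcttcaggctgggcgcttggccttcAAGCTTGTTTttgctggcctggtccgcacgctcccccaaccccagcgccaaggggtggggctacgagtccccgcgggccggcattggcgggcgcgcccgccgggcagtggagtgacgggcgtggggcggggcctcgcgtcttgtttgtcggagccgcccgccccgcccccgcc
These windows end at the RefSeq start, which for each printed window lies inside the GENCODE vM21 gene given below, whose start is farther upstream. The half-site began 90 bases before the RefSeq Ddit4l start and 173 bases before the second Sesn1 start. It was not found in the windows of Ddit4, Sesn2, Tigar or the first Sesn1 start. Of 32851 promoter windows of this length, 2341 or 7.13% held it. A match describes letters in the window and shows no binding.

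Of the 6 genes, 4 passed the test as higher in mutant mesenchyme, Ddit4l, Trp53inp1, Sesn2 and Ddit4, and Sesn1 and Tigar did not pass in either direction. The test was edgeR's quasi-likelihood test on UMIs summed per library, with Benjamini-Hochberg adjustment over the 10091 genes that averaged 5 CPM or more, and a call meant an adjusted p under 0.05. It called 0.872% of these genes higher and 0.535% lower. Its fitted prior for the spread was infinite. A trend over all genes therefore set the spread, and that of a single gene between libraries did not enter. Ddit4l, Trp53inp1 and Sesn2 were under 5 CPM in the control and passed the filter only through the mutant libraries, so the count of 4 rests in part on that filter. The 4 genes also passed with no filter on low counts. With 2 libraries against 1, an exact permutation test over libraries cannot give a p under 0.333.

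Ddit4l, the REDD2 gene, lies on chromosome 3 from 137621612 to 137628333 (mm10, GENCODE vM21, plus strand). It was at 19.6 and 14.6 CPM in mutant mesenchyme, from 1002 and 1471 UMIs, against 0.369 CPM from 19 UMIs in control mesenchyme. Both mutant libraries stood far above the control. The log2 fold change was 5.46 ± 0.41 (SE), with an adjusted p of 7.6e-36 by edgeR. In cells thinned to 10000 UMIs, a Ddit4l UMI was found in 7.78% (95% interval 6.20 to 9.60) and 8.03% (6.84 to 9.36) of mutant mesenchyme cells and in 0.740% (0.272 to 1.60) of control mesenchyme cells. Erythroid cells gave 0.168% and 0.449% in the mutants, and 0 of 397 control cells, a count that limits the share to 0.756%.

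Ddit4, the REDD1 gene, lies on chromosome 10 from 59949669 to 59951834 on the minus strand. Its level was 37.4 CPM in mesenchyme of mutant 1 and 13.8 CPM in mutant 2, against 9.42 CPM in the control. The 2 mutant libraries differed more from each other than mutant 2 did from the control. The fitted log2 fold change was 1.36 ± 0.30, with an adjusted p of 0.00071 by edgeR. It was 1.88 for mutant 1 alone and 0.54 for mutant 2 alone, with no test for either. The share of thinned mesenchyme cells with a Ddit4 UMI was 24.8% (22.2 to 27.6) in mutant 1 and 8.78% (7.54 to 10.2) in mutant 2, against 8.75% (6.90 to 10.9) in the control. In mutant 2 that share therefore lay within the interval of the control. The call did not hold with DESeq2 (adjusted p = 0.336), with sums of thinned UMIs (edgeR adjusted p = 0.237) or with a finite prior for the spread taken from the ectoderm fit (edgeR adjusted p = 1.00).

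Sesn2, the leucine-sensing sestrin, lies on chromosome 4 from 132492032 to 132510501 on the minus strand. In mesenchyme it was at 13.7 and 12.2 CPM in the mutants and 4.18 CPM in the control. The log2 fold change was 1.57 ± 0.31 with an adjusted p of 0.00013 by edgeR, and it became 0.300 with the prior of the ectoderm fit. A Sesn2 UMI was found in 10.3% (8.53 to 12.4) and 8.94% (7.69 to 10.3) of thinned mutant cells and in 3.21% (2.10 to 4.66) of control cells. The intervals of both mutants lay above that of the control, but they cover counting error within a library only. Gm12981 overlaps Sesn2 on the same strand and had 94 and 123 UMIs in the mutants and 84 in the control over all cells kept, against 1607, 2211 and 1501 for Sesn2.

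Sesn1, the other sestrin of the list, lies on chromosome 10 from 41809935 to 41908424 on the plus strand. It was at 31.2 and 22.2 CPM in mutant mesenchyme and 29.4 CPM in control mesenchyme, so the control lay between the mutants on this scale. On the normalised scale of the test it was at 30.2 and 22.8 CPM in the mutants and 30.5 CPM in the control. The log2 fold change was -0.21 ± 0.26, with a 95% interval of -0.72 to 0.31 and an adjusted p of 1.00 by edgeR. That interval leaves out the changes seen for Sesn2, Trp53inp1 and Ddit4l.

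Trp53inp1, the p53 partner with a role in autophagy, lies on chromosome 4 from 11156431 to 11174379 on the plus strand. It stood at 17.9 and 15.5 CPM in mutant mesenchyme and 1.44 CPM in control mesenchyme. Its log2 fold change was 3.48 ± 0.35, with an adjusted p of 4.6e-20 by edgeR. Thinned cells with a Trp53inp1 UMI made up 10.0% (8.26 to 12.1) and 8.78% (7.54 to 10.2) of mutant mesenchyme, against 1.60% (0.856 to 2.73) of control mesenchyme.

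Tigar, the fructose-bisphosphatase that slows glycolysis, lies on chromosome 6 from 127085116 to 127109557 on the minus strand. Its level was 5.63 and 7.05 CPM in mutant mesenchyme and 7.27 CPM in control mesenchyme. Its log2 fold change was -0.25 ± 0.31, with a 95% interval of -0.85 to 0.35 and an adjusted p of 1.00 by edgeR. The share of thinned cells with a Tigar UMI was 5.12% (3.85 to 6.66) and 5.62% (4.62 to 6.77) in the mutants, against 8.38% (6.57 to 10.5) in the control. Platr31 overlaps Tigar on the opposite strand.

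Among cells with a Y-linked UMI and no Xist UMI, the same 4 genes passed in mesenchyme. The log2 fold change of mutants over control was then 5.77 for Ddit4l, 3.44 for Trp53inp1, 1.45 for Sesn2 and 1.15 for Ddit4. The largest adjusted p of the 4, that of Ddit4, was 0.0085 by edgeR.

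**Figure D1:**
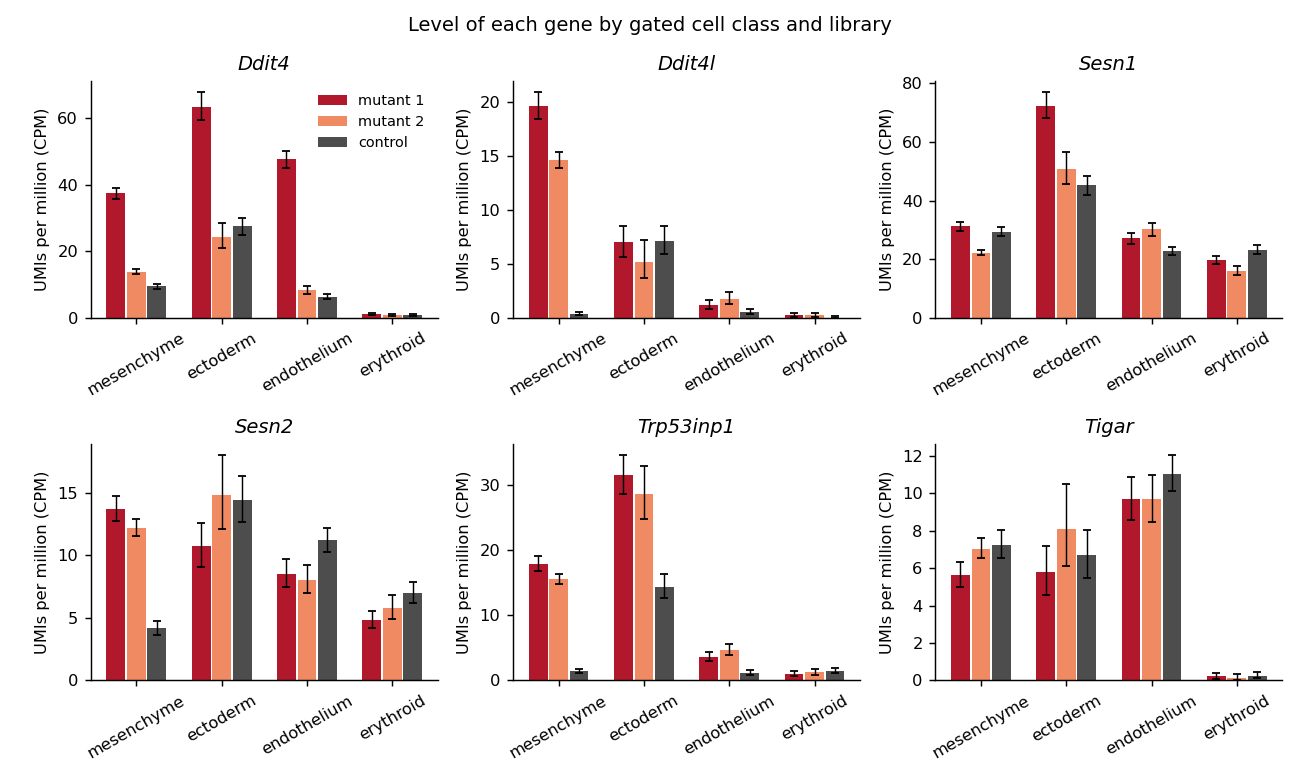
Level of each gene in CPM (y axis) in the 4 gated classes (x axis) for mutant 1, mutant 2 and the control. Bars are sums per library over all cells of the class and error bars are exact 95% Poisson intervals, which cover counting error only. Ddit4l stands at 19.6 and 14.6 CPM in mutant mesenchyme against 0.369 CPM in control mesenchyme, and Ddit4 is high in mutant 1 in 3 of the classes.

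The 6 genes differed in which cell class held them. Sesn1 was highest in ectoderm, at 72.4 and 50.9 CPM in the mutants and 45.2 CPM in the control, and its levels in the other 3 classes reached at most 31.2 CPM with overlap between classes. Trp53inp1 was also highest in ectoderm, at 31.5 and 28.7 CPM in the mutants and 14.4 CPM in the control. It was at 3.59 and 4.66 CPM in mutant endothelium against 1.19 CPM in control endothelium, and at 1.04 to 1.48 CPM in erythroid cells. In the control, Trp53inp1 in mesenchyme, endothelium and erythroid cells did not stand apart, while in the mutants mesenchyme moved clear of the other pair and stayed below ectoderm.

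Ddit4l was at 6.97 and 5.19 CPM in mutant ectoderm and 7.11 CPM in control ectoderm. Its order therefore differed by genotype, with ectoderm as the highest class in the control and mesenchyme as the highest in both mutants. It did not exceed 1.76 CPM in endothelium or 0.243 CPM in erythroid cells of any library. Sesn2 was at 10.7 and 14.8 CPM in mutant ectoderm and 14.4 CPM in control ectoderm, and at 8.52 and 8.06 CPM in mutant endothelium and 11.2 CPM in control endothelium. Mesenchyme was the lowest of the 4 classes for Sesn2 in the control, at 4.18 CPM beside 6.97 CPM in erythroid cells, while in mutant 1 it stood above ectoderm and in mutant 2 the counting intervals of these classes overlapped. Tigar was highest in endothelium, at 9.68 and 9.69 CPM in the mutants and 11.1 CPM in the control, with mesenchyme and ectoderm lower, although the counting interval of mutant 2 ectoderm reached that of endothelium. In erythroid cells Tigar was at most 0.252 CPM.

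Outside mesenchyme, none of the genes passed the test of mutants against control, and edgeR called 0% of all genes there. At an unadjusted p under 0.05 it had 1056 of 10663 genes in ectoderm, 666 of 9757 in endothelium and 168 of 7241 in erythroid cells, and DESeq2 called 31 genes in ectoderm, 47 in endothelium and 22 in erythroid cells after adjustment, none of them one of the 6. The prior for the spread was finite in these classes, with 5.99, 2.36 and 2.19 degrees of freedom in ectoderm, endothelium and erythroid cells. The spread of a single gene therefore entered, unlike in mesenchyme, and calls in and outside mesenchyme are not on the same footing. With the prior of the ectoderm fit, mesenchyme itself had 12 genes called higher and 4 lower. Trp53inp1 in ectoderm had a log2 fold change of 0.99 ± 0.21, with an unadjusted p of 0.0024 and an adjusted p of 0.299 by edgeR. Trp53inp1 and Ddit4l were below the filter in endothelium, and Sesn1 and Sesn2 alone passed it in erythroid cells. At a filter of a mean of 1 CPM, Trp53inp1 in endothelium had a log2 fold change of 1.74 ± 0.34 (edgeR adjusted p = 0.655). Ddit4l there had 1.33 ± 0.45 (edgeR adjusted p = 0.657), so neither was called, although both estimates were above 0. Trp53inp1 in erythroid cells was at -0.26 ± 0.33 with that filter. All 3 libraries entered every class, so the same control library is shared by these comparisons.

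The difference between classes was tested itself, as the mutant effect in mesenchyme minus that in another class, with the library as a term. The prior for the spread was again infinite in these fits. Against ectoderm, 3 of the 6 genes passed as higher, where edgeR called 0.688% of 10606 genes higher and 0.717% lower. The log2 difference was 5.74 ± 0.48 for Ddit4l (adjusted p = 2.5e-29), 2.47 ± 0.36 for Trp53inp1 (adjusted p = 2.9e-09) and 1.83 ± 0.37 for Sesn2 (adjusted p = 0.00018). With the prior of the ectoderm fit, Trp53inp1 and Sesn2 lost this call (edgeR adjusted p = 0.166 and 0.527), and Sesn2 also lost it with sums of thinned UMIs (0.647). Against endothelium, where 1.32% of genes were called higher and 0.838% lower, the same 3 genes passed, with log2 differences of 4.15 for Ddit4l, 2.09 for Sesn2 and 1.77 for Trp53inp1. Against erythroid cells, where 0.739% were called higher and 0.622% lower, Trp53inp1 passed with 3.78 and Sesn2 with 1.89. Ddit4l against endothelium and Trp53inp1 against endothelium and erythroid cells were under 5 CPM in every sum but those of mutant mesenchyme. They passed the filter only through that group, so these calls rest in part on the filter. With sums of thinned UMIs, the calls against endothelium were lost for Ddit4l (edgeR adjusted p = 0.407) and Trp53inp1 (1.00), as was that of Trp53inp1 against erythroid cells (0.0960).

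Ddit4 did not pass any of these tests of a difference between classes. Its log2 difference was 0.76 ± 0.31 against ectoderm (edgeR adjusted p = 0.545) and -0.44 ± 0.24 against endothelium (edgeR adjusted p = 0.841). In mutant 1 Ddit4 was high in 3 classes, at 63.4 CPM in ectoderm, 47.6 CPM in endothelium and 37.4 CPM in mesenchyme. In mutant 2 it was at 24.4, 8.38 and 13.8 CPM in these classes, and in the control at 27.5, 6.26 and 9.42 CPM.

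A list of hypoxia-response genes also differed between the mutant libraries, and in mutant 2 its median lay below the control also in mesenchyme and endothelium, where Ddit4 lay above it. In mesenchyme 14 of its 18 tested genes were above the control in mutant 1, with a median log2 difference of 0.35, and 0 of 18 in mutant 2, with a median of -0.54. In endothelium 19 of 20 were above the control in mutant 1 (median 0.52) and 2 of 20 in mutant 2 (median -0.46), and in ectoderm 15 of 18 (0.33) and 1 of 18 (-0.49). The part of this difference in the Ddit4 result was not tested. A list of genes induced by glucocorticoids had medians of 0.28 and 0.03 in mesenchyme of mutants 1 and 2.

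**Figure D2:**
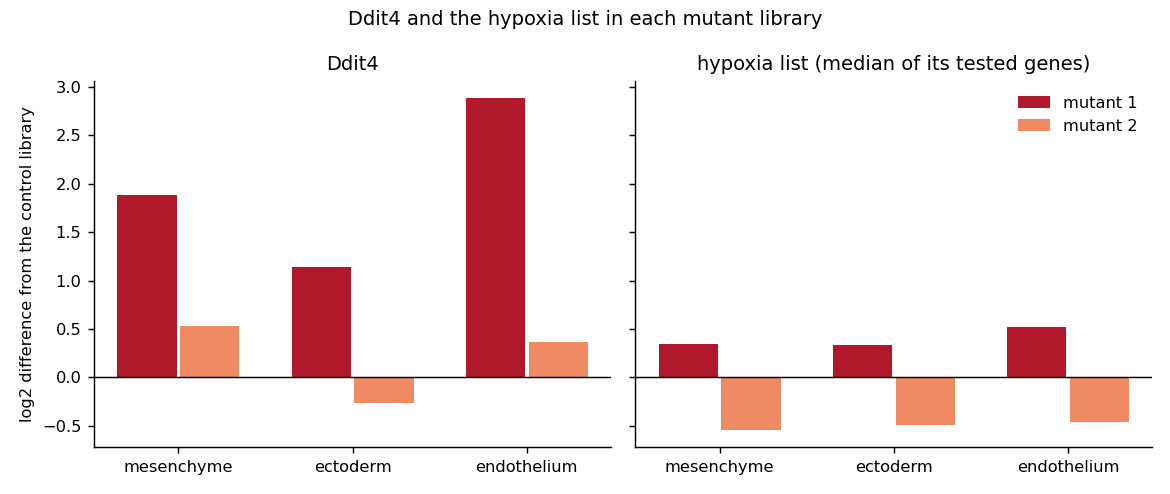
Log2 difference of each mutant library from the control library (y axis) in 3 cell classes (x axis), for Ddit4 on the left and for the median of the tested hypoxia genes on the right. Mutant 1 lies above the control in all 3 classes for both, by 1.88 for Ddit4 in mesenchyme, and mutant 2 has hypoxia medians from -0.54 to -0.46.

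Within mutant mesenchyme, a Cdkn1a UMI was found in 140 of 1016 thinned cells in mutant 1 and 240 of 1867 in mutant 2, and in 4 of 811 control cells, of which 3 had a Ddit4l UMI. Ddit4l, Trp53inp1, Sesn2 and Ddit4 were each higher in cells with a Cdkn1a UMI than in cells without one in both mutants, while Sesn1 did not pass. The test compared sums of thinned UMIs per library and cell set, with the library as a block. Its prior for the spread was infinite too, and its p-values compare cell sets within the same 2 libraries, not separate pools. The test called 9.06% of 10390 genes higher and 3.75% lower, and Tigar was below its filter of a mean of 5 CPM. Ddit4l and Trp53inp1 were under 5 CPM in the cells without a Cdkn1a UMI of mutant 2, and on the normalised scale of the test in those of both mutants, and so passed the filter only through the cells with one. Both also passed the test at a filter of a mean of 1 CPM. The 2 cell sets had median depths of 48819 and 52326 UMIs with a Cdkn1a UMI and 38740 and 54739 without one before thinning, and median mitochondrial shares of 2.47% and 2.27% against 3.06% and 2.06%.

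Ddit4l was at 85.7 CPM in mutant 1 cells with a Cdkn1a UMI and at 4.68 CPM in those without. In mutant 2 it was at 97.5 CPM with one and 2.52 CPM without. Between the cell sets the log2 fold change was 4.84 ± 0.19, with an edgeR adjusted p of 4.0e-138. Trp53inp1 was at 96.4 CPM with and 5.14 CPM without a Cdkn1a UMI in mutant 1, and at 96.7 CPM with and 3.50 CPM without in mutant 2, a log2 fold change of 4.60 ± 0.18 (edgeR adjusted p = 1.3e-136). In cells with a Cdkn1a UMI the 2 libraries lay close together for both genes.

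For Sesn2 the levels were 55.0 CPM with and 6.96 CPM without a Cdkn1a UMI in mutant 1, and 49.6 CPM with and 5.90 CPM without in mutant 2. Its log2 fold change was 3.09 ± 0.20 (edgeR adjusted p = 1.8e-53). Ddit4 was at 102 CPM with and 28.4 CPM without in mutant 1, and at 70.0 CPM with and 4.98 CPM without in mutant 2. Its log2 fold change was 2.77 ± 0.16 (edgeR adjusted p = 2.6e-65), and it was 1.92 in mutant 1 alone and 3.81 in mutant 2 alone, with no test. Sesn1 was at 33.6 CPM with and 37.9 CPM without in mutant 1, and at 22.1 CPM with and 27.4 CPM without in mutant 2, a log2 fold change of -0.18 ± 0.18 (edgeR adjusted p = 0.621). It passed as lower with all UMIs in place of thinned ones, at -0.31 (edgeR adjusted p = 0.0031), and at a thinning depth of 20000 UMIs, at -0.40 (0.0163).

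Tigar UMIs were found in 1.43% (0.173 to 5.07) of cells with a Cdkn1a UMI and 5.71% (4.27 to 7.46) of cells without one in mutant 1, and in 2.08% (0.680 to 4.79) and 6.15% (5.03 to 7.43) in mutant 2. These rest on 2 and 5 cells with both UMIs. At a filter of a mean of 1 CPM, Tigar had a log2 fold change of -1.75 ± 0.51 with an edgeR adjusted p of 0.0074, so its direction was opposite to that of the other genes that passed.

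The cells with a Cdkn1a UMI were 13.8% and 12.9% of mutant mesenchyme. They held 74.5% and 85.1% of the thinned Ddit4l UMIs of mutants 1 and 2, 75.0% and 80.3% of those of Trp53inp1, and 55.8% and 55.3% of those of Sesn2. For Ddit4 they held 36.5% in mutant 1 and 67.5% in mutant 2. Their portion of Sesn1 was 12.4% and 10.6%, close to their share of cells, and of Tigar 3.64% and 4.55%.

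**Figure D3:**
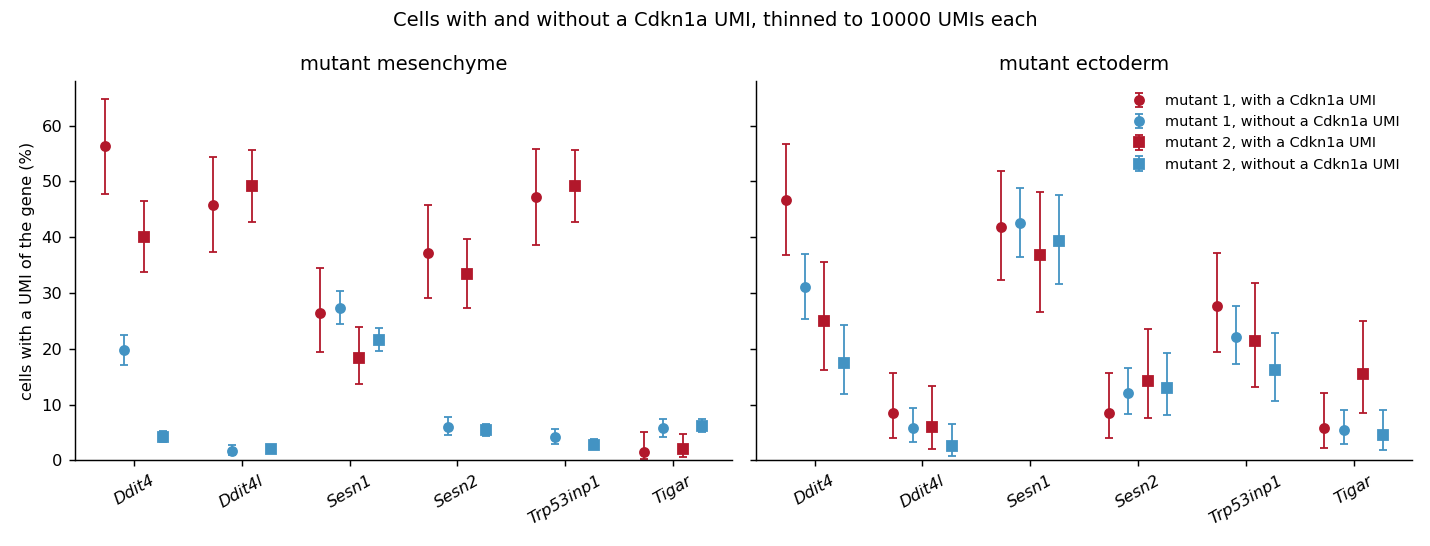
Share of cells with a UMI of each gene (y axis, percent) in mutant mesenchyme on the left and mutant ectoderm on the right, for cells with a Cdkn1a UMI (red) and without one (blue) in mutant 1 (circles) and mutant 2 (squares). Bars are exact 95% binomial intervals. In mesenchyme Ddit4l UMIs are in 45.7% and 49.2% of cells with a Cdkn1a UMI and in 1.71% and 1.97% of cells without one.

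The shares also ran with the number of Cdkn1a UMIs in a cell, given here as a description with no test. In mutant 1, Ddit4l UMIs were found in 1.71% of 876 cells with no Cdkn1a UMI, 19.0% of 42 cells with 1, 46.3% of 54 cells with 2 to 4 and 70.5% of 44 cells with 5 or more. In mutant 2 the shares were 1.97% of 1627, 17.2% of 64, 50.6% of 87 and 70.8% of 89 cells. Sesn2 ran from 6.05% through 19.0% and 37.0% to 54.5% in mutant 1, and from 5.35% through 9.38% and 32.2% to 51.7% in mutant 2. Trp53inp1 was already in 19 of 42 mutant 1 cells and 16 of 64 mutant 2 cells with a single Cdkn1a UMI, and reached 56.8% and 65.2% at 5 or more.

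Ddit4 ran from 19.7% to 59.1% in mutant 1 and from 4.18% to 60.7% in mutant 2 between the lowest and highest of these classes. The gap between the libraries was therefore wide in cells with no Cdkn1a UMI and within counting error in cells with 5 or more. Sesn1 showed no such order, with 27.3% and 21.6% of cells at no Cdkn1a UMI and 15.9% and 18.0% at 5 or more.

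**Figure D4:**
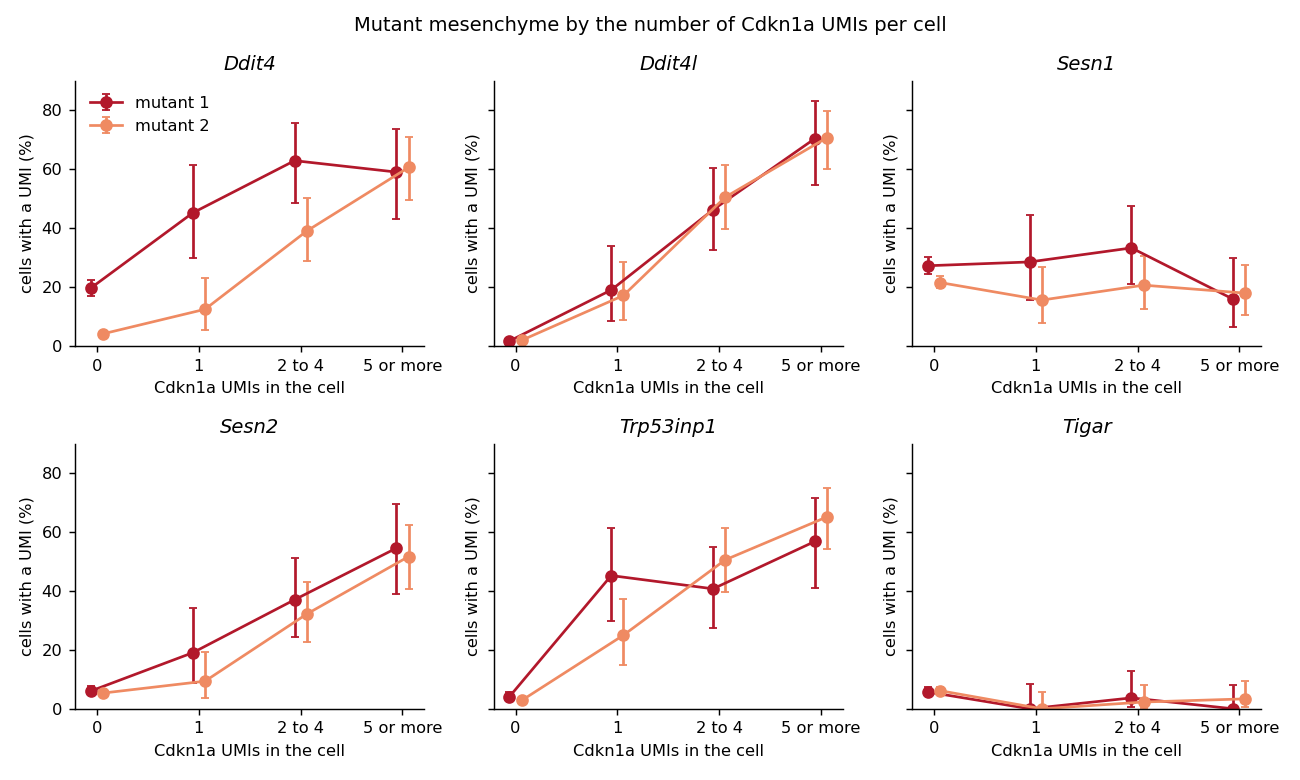
Share of mutant mesenchyme cells with a UMI of each gene (y axis, percent) by the number of Cdkn1a UMIs in the cell (x axis), for mutant 1 and mutant 2. Points are shares and bars exact 95% binomial intervals. Ddit4l reaches 70.5% and 70.8% at 5 or more Cdkn1a UMIs, while Sesn1 stays between 15.6% and 33.3%.

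The genes also met in the same cells. Of mesenchyme cells with a Ddit4l UMI, 60.8% of 79 in mutant 1 and 53.3% of 150 in mutant 2 had a Trp53inp1 UMI, against 5.76% and 4.89% of cells without a Ddit4l UMI. A Sesn2 UMI was in 41.8% and 38.7% of cells with Ddit4l and 7.68% and 6.35% of cells without. For Sesn1 the shares were 22.8% and 18.7% with Ddit4l and 27.5% and 21.4% without. At least 2 of Ddit4l, Trp53inp1, Sesn2 and Cdkn1a were found together in 10.8% and 10.4% of mutant mesenchyme cells and in 0.493% of control cells, and at least 3 in 6.40% and 5.73% against 0.123%. All 4 were found in 1.97% and 1.77% of mutant cells and in 0 of 811 control cells, a count that limits the share to 0.370%. Each of these 4 genes was called higher in mutant mesenchyme, so a higher joint share there follows in part from their choice. The joint share expected from the single genes was not computed.

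Ectoderm held Cdkn1a UMIs in every library, in 28.9% and 35.1% of cells in the mutants and 26.5% in the control. The same split there was compared with that in mesenchyme. In mutant ectoderm, where edgeR called 6.39% of 10787 genes higher and 5.24% lower in cells with a Cdkn1a UMI, Ddit4 alone of the 6 genes passed, with a log2 fold change of 0.98 ± 0.21 (adjusted p = 0.0018). That call was lost at a thinning depth of 5000 UMIs (edgeR adjusted p = 0.365) and at a mitochondrial limit of 5% (0.0665). Ddit4l had 9.52 CPM with and 6.20 CPM without a Cdkn1a UMI in ectoderm of mutant 1, and 5.95 CPM with and 3.23 CPM without in mutant 2.

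The difference of the split between mesenchyme and ectoderm passed as higher for 4 genes, where 6.47% of 10827 genes were called higher and 3.03% lower. The log2 difference was 4.10 ± 0.31 for Trp53inp1, 4.03 ± 0.57 for Ddit4l, 3.02 ± 0.41 for Sesn2 and 1.76 ± 0.31 for Ddit4, with edgeR adjusted p-values of at most 1.0e-05. Tigar passed as lower, at -2.78 ± 0.74 (edgeR adjusted p = 0.0066), from few cells, and the call was lost at thinning depths of 5000 and 20000 UMIs (edgeR adjusted p = 0.281 and 0.438) and at a mitochondrial limit of 5% (0.0988). Tigar was below the filter in the mesenchyme split and entered this fit only through the ectoderm sums. Its call therefore rests in part on the filter. In ectoderm Tigar UMIs were in 5.71% of cells with and 5.43% without a Cdkn1a UMI in mutant 1, and in 15.5% with and 4.52% without in mutant 2.

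Mutant mesenchyme was compared with control mesenchyme, using only cells without a Cdkn1a UMI in all 3 libraries. Of the 6 genes 4 passed the filter and 0 were called by edgeR, where 0.059% of 10167 genes were called higher and 0.0885% lower. None of the 4 reached an unadjusted p under 0.05, and DESeq2 called 0 of them. Sesn2 was at 6.96 and 5.90 CPM in mutant cells and 3.35 CPM in control cells, a log2 fold change of 0.81 ± 0.52 with a 95% interval of -0.21 to 1.83. Ddit4 was at 28.4 CPM in mutant 1 and 4.98 CPM in mutant 2, on either side of the control at 10.2 CPM. Ddit4l, below the filter, was at 4.68 and 2.52 CPM in mutant cells and 0.372 CPM in control cells, and Trp53inp1 at 5.14 and 3.50 CPM against 1.73 CPM. At a filter of a mean of 1 CPM their log2 fold changes were 3.04 ± 0.81 and 1.14 ± 0.59, with edgeR adjusted p-values of 0.0726 and 1.00. A missing Cdkn1a UMI at this depth does not show that a cell lacked Cdkn1a transcripts.

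The wider lists put these genes beside their pathways. Of 34 other p53 targets 27 were tested in mesenchyme, and 10 were higher and 0 lower in the mutants, with a median log2 fold change of 0.80 against -0.01 over all genes, of which 0.872% were called higher and 0.535% lower. Its 3 largest were Cdkn1a at 5.26 ± 0.40, Eda2r, a TNF receptor family member, at 3.56 ± 0.35 and Ccng1, cyclin G1, at 2.57 ± 0.31. Cdkn1a and Eda2r were under 5 CPM in the control and passed the filter only through the mutants, so this count too rests in part on the filter. Of the mTORC1 machinery and its regulators, 43 of 49 listed genes were tested and edgeR called 0, with a median of -0.07. None was called among 17 genes of glycolysis control and the pentose phosphate pathway, 12 of autophagy, 12 of the integrated stress response, 18 of hypoxia, 7 of the glucocorticoid response or 5 FoxO targets. With 0.872% of all genes called higher and 0.535% lower, counts of 0 in these lists and the mTORC1 list are near those shares. They do not show that the listed genes were unchanged. At an unadjusted p under 0.05, edgeR had 1 gene each of the mTORC1, glycolysis, hypoxia and glucocorticoid lists and 0 of the other 3, and DESeq2 called 0 in any of the 7 lists after adjustment. Kinase activity was not measured.

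In the split by Cdkn1a UMI, 27 of 30 tested p53 targets were higher, with a median log2 fold change of 2.44, where 9.06% of all genes were called higher and 3.75% lower. Some of these targets were under 5 CPM in cells without a Cdkn1a UMI and passed the filter only through cells with one. The count and the median rest in part on that filter. Among the mTORC1 genes 5 of 42 were higher and 2 lower, with a median of -0.05 against -0.02 over all genes, and these counts are near the shares over all genes. Among the higher ones, the log2 fold change was 0.69 ± 0.20 for Ulk1, the kinase that starts autophagy, and 0.53 ± 0.13 for Eif4ebp1, the translation repressor that mTORC1 phosphorylates. Wdr24, a GATOR2 subunit, was lower at -1.21 ± 0.42 and Rps6kb1, the S6 kinase gene, at -0.39 ± 0.14. Of 17 glycolysis and pentose phosphate genes, Rpe, an epimerase of the pentose phosphate pathway, was higher at 0.99 ± 0.16 and Hk2, a hexokinase, lower at -0.66 ± 0.14. With 1 gene called in each direction, this list was also near the shares over all genes. Trp53 itself was higher at 0.55 ± 0.13, the 1 gene called of 12 tested in the autophagy list, again near the share over all genes.

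Across the 12 sums of 4 classes by 3 libraries, the genes most like each member in log2 CPM were named by Pearson's r as a description, since the sums share libraries and the genes carry class identity. Trp53inp1 was most like Lpin1 (r = 0.981), Lrrc51 and Dcaf4, and Sesn2 most like Ccng1 (r = 0.804), Ptch1 and Tmx2. Ddit4 was most like Fam117b (r = 0.966), Ube2r2 and Aff4, Sesn1 most like Phc3, Crebrf (r = 0.944) and Echdc1, and Tigar most like Rnf41 (r = 0.996), Elovl5 and Cnn3. Ddit4l was below a mean of 5 CPM over these sums.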

How the data were processed

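The deposited matrices hold UMI counts per gene and cell from 10x 3′ libraries, made by the authors with Cell Ranger 7.0.0 and the mm10 build, with Seurat 4.0.0 also named, per the submitters' processing notes. Cells were kept with at least 500 genes and at most 10% mitochondrial UMIs, and doublets called with scrublet at an expected rate of 0.06 were removed (2.60% and 2.54% of the mutants, 1.00% of the control). Cells with at least 10000 UMIs were thinned to that depth, and cells below it were left out of every class. A class other than erythroid needed 5 UMIs over at least 2 of its markers and 3 times the marker UMIs of any other such class. Its cells also had fewer than 200 UMIs of erythroid markers. Erythroid cells needed at least 200 UMIs of erythroid markers and fewer than 5 of the markers of each other class.

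Counts were summed per library and class and tested with edgeR 4.0.16 (TMM, quasi-likelihood, Benjamini-Hochberg over all genes averaging 5 CPM or more). Levels in CPM are UMIs per 1000000 UMIs of the class, and split levels use thinned UMIs. Shares have exact Clopper-Pearson 95% intervals, which like the Poisson intervals cover counting error only. DESeq2 1.42.0 was an alternative. On simulated counts the mesenchyme comparison of mutants against control (9942 genes) recovered 98.9% of 4-fold changes. The simulation gave all genes the same spread and both mutant libraries the same change. It therefore does not show the recovery for genes that differ more between the mutants, such as Ddit4. The named genes are the 6 members, at most 3 genes per list and direction by fold, and 3 most alike genes per member. A gene that this rule names is not reported here. Members, lists and tests were chosen with earlier results of these data known. How the counting treats overlapping genes is not stated in those notes.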

Additional observations from a re-analysis of the deposited data

Results flagged for a closer look

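The mutant effect differed between cell classes for 3 genes, by the edgeR quasi-likelihood test of the difference itself. Against ectoderm the log2 difference of the mutant effect in mesenchyme was 5.74 for Ddit4l, 2.47 for Trp53inp1 and 1.83 for Sesn2. Against endothelium it was 4.15 for Ddit4l, 2.09 for Sesn2 and 1.77 for Trp53inp1. Against erythroid cells it was 3.78 for Trp53inp1 and 1.89 for Sesn2. The 3 comparisons share the mesenchyme sums and the control library. Ddit4l against ectoderm and Sesn2 against endothelium and erythroid cells kept the call in every tested alternative. The other calls were lost with sums of thinned UMIs or with the prior of the ectoderm fit, which was tried only against ectoderm. Ddit4l against endothelium and Trp53inp1 against endothelium and erythroid cells passed the filter only through mutant mesenchyme.

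The contrast of cells with and without a Cdkn1a UMI also differed between mutant mesenchyme and mutant ectoderm. The log2 difference was 4.10 for Trp53inp1, 4.03 for Ddit4l, 3.02 for Sesn2 and 1.76 for Ddit4, all higher in mesenchyme. It was -2.78 for Tigar, lower in mesenchyme, from few cells. The Tigar call was lost at thinning depths of 5000 and 20000 UMIs and at a mitochondrial limit of 5%. Tigar passed the filter of this comparison only through the ectoderm sums.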

How the results depend on the processing

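Ddit4l and Trp53inp1 passed in mutant mesenchyme under every tested alternative, and Ddit4l, Trp53inp1, Sesn2 and Ddit4 passed under every tested alternative of the Cdkn1a split. Mutants against control gave 88 genes higher and 54 lower in mesenchyme. These counts became 44 and 10 with DESeq2, 210 and 145 at a mean of 1 CPM, 375 and 221 with no filter, 12 and 4 with the prior of the ectoderm fit, and 35 and 17 with sums of thinned UMIs, and 93 were lower at a mitochondrial limit of 5%. The Cdkn1a split gave 941 higher and 390 lower. It gave 428 and 35 with DESeq2, 1415 and 1005 at a depth of 20000 UMIs, 476 and 31 with that prior, and 318 and 2 with no replicate block. Its lower count was also 1130 with all UMIs, 198 at a depth of 5000 UMIs, 625 at a mitochondrial limit of 20% and 767 when split on Phlda3.

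Reversed log2 values among the tested alternatives, none of them called, were these. Sesn1 in the split was 0.11 (depth 20000) and 0.076 (mitochondrial limit 5%) in ectoderm and 0.074 in mesenchyme when split on Ccng1. Without a Cdkn1a UMI it was 0.088 (depth 5000) and 0.28 (limit 5%). Mesenchyme minus erythroid, Sesn1 was -0.045 with no filter and -0.00054 with a stricter gate, and Ddit4l -1.35 with thinned sums. Sesn2 in the ectoderm split was -0.11 in cells with a Y-linked UMI and no Xist UMI and -0.0083 with a stricter gate, and in ectoderm 0.15 with thinned sums. Tigar in the ectoderm split was -0.20 at depth 20000, and in ectoderm 0.0020 at depth 20000 and 0.28 with thinned sums. Mesenchyme minus endothelium, Tigar was -0.027 with DESeq2 size factors, -0.042 in cells with a Y-linked UMI and no Xist UMI, -0.052 at the limit of 5%, -0.0049 with no filter and -0.32 with thinned sums. The causes were not tested. Of the values with no test, the sign also changed without mutant 1 for Ddit4 in ectoderm (-0.26) and without a Cdkn1a UMI (-1.05) and for Tigar in ectoderm (0.18), and without mutant 2 for Sesn2 in the ectoderm split (-0.40) and Sesn1 without a Cdkn1a UMI (0.076).

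No paired analysis was possible because mutants against control share fewer than 2 replicate numbers, with 1 control library. The restrictions to unshared barcodes and to cells with a Y-linked UMI were chosen after seeing the data, as were the uses of the ectoderm prior outside the first comparison. Without 1 mutant library no residual degrees of freedom remain, so such values have no test.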
